A study of Mus musculus with 72 samples.

Results

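The data describe 10 target genes of the transcription factor p53 that act in cell death, measured in the liver and lung of irradiated mice: Eda2r, Tnfrsf10b, Fas, Pidd1, Bax, Bbc3, Pmaip1, Aen, Ei24 and Perp. They were found by matching the RefSeq transcript that each array probe is designed against to its gene symbol, which gave 21 probes for the 10 genes out of 56605 probes. Of all probes, 34566 could be matched to 23787 gene symbols. Female C57BL/6 J mice, 6 to 8 weeks old, received X-rays over the whole body once, at 1.05 Gy per minute, with surface doses from 1 Gy through 2, 4 and 8 Gy up to 12 Gy, and controls (0 Gy) were sham irradiated in the same kind of container. The labels name no transgene or deleted gene. Liver and lung RNA was taken 48 hours later from 3 mice at each dose, which makes 18 arrays for each tissue and 36 in all. The arrays read whole tissue, so fewer cells of a type and less RNA per cell cannot be told apart.

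p53 is stabilised when DNA is broken and switches on genes that halt the cell cycle, repair DNA or kill the cell. Its cell-death targets reach the cell in several ways. Death receptors sit in the plasma membrane and pass a signal from an outside ligand to caspases. BCL2 family proteins act at mitochondria, where Bax opens the outer membrane and the BH3-only proteins Puma (gene Bbc3) and Noxa (gene Pmaip1) free it to do so. Other targets act in the nucleus, the endoplasmic reticulum or the cell surface. In radiation biology the lung is a tissue of late injury, and hepatocytes are known as cells that seldom divide and seldom die by apoptosis soon after irradiation.

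Of the 10 genes, 7 have a promoter window in the RefSeq table for GRCm38.p6, covering 250 bases before to 50 bases after a start site. Perp, Tnfrsf10b and Pmaip1 have no entry there. The windows were searched for the 10-base p53 half-site, which reads the same on both strands, and 3 of the 7 genes held an exact match, Bax, Aen and Ei24, beside 9.55% of the 27025 genes of the table. A full site (2 half-sites at most 13 bases apart) was in 0 of the 7 and in 0.074% of all genes. The matches are given in capitals. These 3 genes were among those that passed as higher at 4 and 8 Gy in both tissues. So were Eda2r, whose window holds no exact match, and Tnfrsf10b, which has no window. A link between match and response was not tested. Bax lies on chromosome 7 and is read from the minus strand, and its match starts 201 bases before the start site, shown in 100 bases at chr7:45467045-45467144. Aen lies on the plus strand of chromosome 7, and the 30 bases shown are chr7:78895927-78895956, which begin at the first of its start sites. Ei24 is read from the minus strand of chromosome 9, and the 100 bases shown at chr9:36797335-36797434 end at the base before the start site, so that the match fills the last 10 of them.
Bax: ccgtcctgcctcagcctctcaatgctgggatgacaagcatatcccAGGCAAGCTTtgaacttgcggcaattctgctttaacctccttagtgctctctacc
Aen: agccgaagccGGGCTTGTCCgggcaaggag
Ei24: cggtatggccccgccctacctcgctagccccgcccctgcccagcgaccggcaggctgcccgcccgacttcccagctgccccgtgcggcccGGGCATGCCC
The match is a description of these letters, and binding was not measured.

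Levels are given as log2 of the background-corrected, quantile-normalized brightness of 1 probe per gene, on a scale of their own in each tissue, so a liver level cannot be set against a lung level. A gene passed where the limma fit over all probes gave a Benjamini-Hochberg adjusted p below 0.05, and it is said to be called where the log2 change was also beyond 1. Adjusted p-values in what follows come from that fit, with 3 mice per dose. Between 46.1% and 54.0% of spots lay well above background on the liver arrays and between 54.1% and 64.0% on the lung arrays, and no spot of a member was saturated. The hepatocyte marker list had 8 of 8 genes above background on every liver array, but also on some lung arrays, so its detection does not separate the tissues. The alveolar and airway epithelium list had 6 of 6 on every lung array and at most 5 on a liver array. Hepatocyte genes also varied between lungs, with a mean log2 level of the list from 6.92 to 12.6, and their part in the results was not tested. The 36 arrays came from 5 slides. In liver, slide 1 held the 0 and 1 Gy arrays and 2 of the 2 Gy arrays, slide 2 held 1 array of 2 Gy, all of 4 and 8 Gy and 1 of 12 Gy, and slide 3 the other 2 of 12 Gy. In lung, slide 3 also held 0 and 1 Gy, slide 4 held 2 and 4 Gy and 2 arrays of 8 Gy, and slide 5 held 1 array of 8 Gy and all of 12 Gy. In lung, a dose of 2 Gy or more and the slide therefore cannot be told apart in a comparison with 0 Gy. The lung arrays of slide 5 were dimmer. They had 54.1% to 54.8% of spots well above background, against 59.2% to 64.0% on the other lung arrays. The 75th percentile of their processed signal was 656 to 763, against 1038 to 1281. The part of this in the 12 Gy lung results was not tested.

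In both tissues, more of the cell-death targets passed as higher at 4 Gy and above than at 1 or 2 Gy. In liver 0 of 10 passed as higher than 0 Gy at 1 Gy (limma, with 3 at an unadjusted p below 0.05 in either direction). At 2 Gy 1 passed, namely Eda2r, and at each of 4, 8 and 12 Gy 5 did, Eda2r among them. Its probe was well above background in 0 of 3 control livers, so it entered the liver fit through irradiated arrays. Its place in the liver counts of passed and called members rests on control values below background. Among all 38362 liver probes tested, 0.0182%, 0.18%, 1.59%, 4.95% and 2.91% passed as higher at these doses. In lung 1 of 10 passed at 1 Gy, 2 at 2 Gy, 6 at 4 Gy, 7 at 8 Gy and 8 at 12 Gy, where 0.0114%, 0.1%, 0.637%, 1.68% and 13.5% of 43979 probes did. With the size limit added, 0, 1, 2, 4 and 4 members were called higher in liver, against 0.013%, 0.0808%, 0.321%, 0.839% and 0.73% of probes. In lung 1, 1, 3, 5 and 7 were called higher, against 0.0114%, 0.0705%, 0.239%, 0.525% and 3.03%. The median log2 change of the 10 genes climbed from 0.14 at 1 Gy to 0.67 at 12 Gy in liver and from 0.30 to 1.42 in lung. The median over all probes was 0.01 in liver at both doses, and 0.01 and 0.09 in lung. The slide as a fixed term could be fitted in liver alone. With it 1 member, Eda2r, passed at 4 Gy in place of 5, while 5 passed at 8 Gy and 4 at 12 Gy. With slide as a random block in lung 1, 3, 5 and 7 members passed at 2, 4, 8 and 12 Gy.

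**Figure D1:**
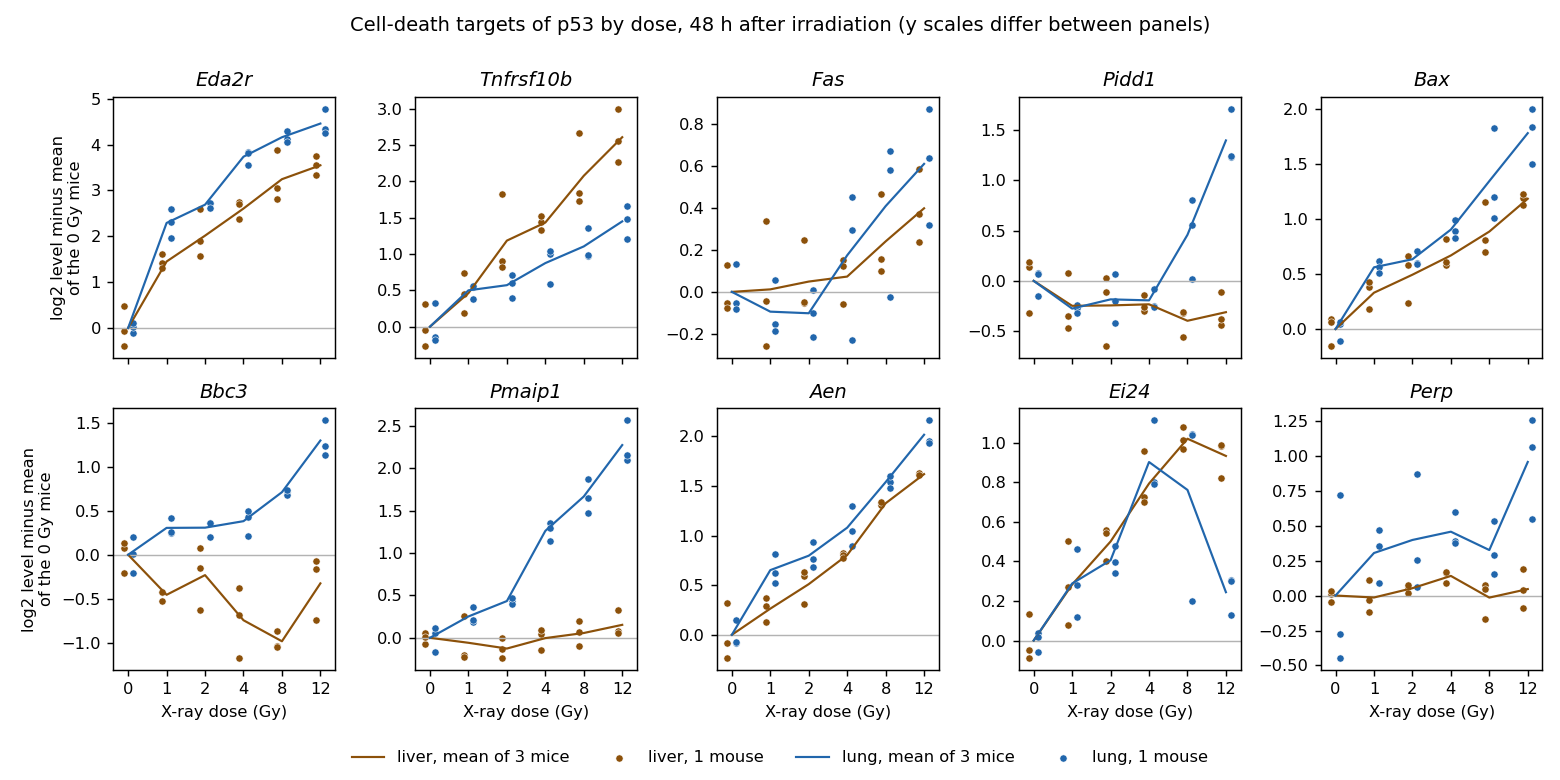
Log2 level of each of the 10 genes minus the mean of the 0 Gy mice of the same tissue, against X-ray dose in Gy (doses evenly spaced). Points are single mice and lines join the means of 3 mice, liver in brown and lung in blue, and Eda2r at 0 Gy in liver was below background. Pmaip1, Bbc3 and, by its reported probe alone, Pidd1 part between the tissues, while Eda2r, Bax and Aen climb in both.

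Read as a straight line over dose, 6 members rose in liver (4.04% of all probes rose) and 9 in lung, where 19.6% of all probes rose. The slope of a line is given here as the log2 change over 12 Gy. In lung it was largest for Eda2r, at 3.51 ± 0.57 (SE). In liver Eda2r gave 2.97 ± 0.43, a value that rests in part on control arrays where the probe was below background. With slide as a fixed term in liver, 1 member passed the trend in place of 6, namely Aen, while the slopes of Eda2r (2.98), Tnfrsf10b (2.09), Bax (1.07) and Ei24 (0.79) stayed near their former size and that of Fas was 0.26. Between neighbouring doses from 1 Gy up, no member passed. In liver 0 of 10 rose between 1 and 2, 2 and 4, 4 and 8, or 8 and 12 Gy. The shares of all probes that rose were 0%, 0%, 0.00521% and 0%. An unadjusted p below 0.05 (limma, rises and falls together) was found for 1, 3, 3 and 2 members. In lung it was likewise 0 of 10 at each step, beside 0%, 0%, 0% and 0.0387% of all probes. There 1, 3, 6 and 7 members had an unadjusted p below 0.05 (limma, rises and falls together).

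Among the receptor genes, the response began at the lowest dose with Eda2r in lung. Eda2r, the receptor of ectodysplasin A2 in the tumour necrosis factor receptor family, was the one member that rose at every dose in lung. The lung levels were 5.99, 6.11 and 6.21 in the 3 unirradiated mice and 8.71, 8.06 and 8.41 after 1 Gy. No mouse at 1 Gy was near the controls. They went on to 8.82, 8.84 and 8.72 at 2 Gy, 9.66, 9.94 and 9.92 at 4 Gy, 10.23, 10.17 and 10.40 at 8 Gy, and 10.44, 10.89 and 10.36 at 12 Gy. The log2 change was 2.29 ± 0.18 (SE) at 1 Gy (adjusted p = 5.08e-05), a 4.89-fold rise, and 4.46 ± 0.18 at 12 Gy (adjusted p = 1.2e-09), a 22.0-fold rise. The step from 0 to 1 Gy was the largest between neighbouring doses, and those arrays shared a slide.

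In liver Eda2r was well above background in 0 of 3 unirradiated mice, so its control level is uncertain. Measured values were 3.84, 4.17 and 4.72 at 0 Gy, 5.67, 5.55 and 5.86 at 1 Gy and 8.00, 7.59 and 7.79 at 12 Gy. All 15 irradiated livers had the probe above background and stood above all controls. For a cautious fold, each control was set to the higher of its own value and the lowest level above background on its array. Eda2r was then 2.41-fold higher at 1 Gy, 3.57-fold at 2 Gy, 5.38-fold at 4 Gy, 8.38-fold at 8 Gy and 10.3-fold at 12 Gy. A spot above that lowest level can still fail to count as above background, so these folds are not strict bounds. The limma fit used the measured values, with adjusted p of 0.14, 0.00623, 0.000335, 2.2e-05 and 6.17e-06 at these doses. The rise at 1 Gy did not pass. The 2 other probes of Eda2r were above background on 0 liver arrays and on 7 and 6 lung arrays, in 0 of 3 control lungs, so they entered the lung fit through irradiated arrays and their changes are not given as support.

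Tnfrsf10b, which encodes the mouse receptor of the death ligand TRAIL, rose in both tissues and further in liver. Liver levels were 5.46, 5.68 and 6.03 at 0 Gy, 7.05, 7.17 and 7.25 at 4 Gy, 7.45, 7.56 and 8.39 at 8 Gy, and 7.99, 8.73 and 8.27 at 12 Gy. From 2 Gy on, every irradiated liver stood above every control. The log2 change was 1.43 ± 0.29 at 4 Gy (adjusted p = 0.0167), 2.08 ± 0.29 at 8 Gy (adjusted p = 0.000854) and 2.61 ± 0.29 at 12 Gy (adjusted p = 0.000116), which is 6.09-fold. The call at 4 Gy was lost with slide as a fixed term (adjusted p = 0.209) and in 5 of the 18 fits that left out 1 mouse, namely control mouse 1 or 11 or any 4 Gy mouse, while the change stayed between 1.30 and 1.48 in those 5. Lung levels were 9.28, 9.24 and 9.74 at 0 Gy and 10.90, 11.08 and 10.62 at 12 Gy, again without overlap, and the log2 change of 1.45 ± 0.18 was 2.73-fold (adjusted p = 0.000122). In lung it first passed at 4 Gy (0.87 ± 0.18, adjusted p = 0.0192), but not without control mouse 1 or 11 or 4 Gy mouse 14 or 24 (0.78 to 0.81) or with slide as a random block (0.85, adjusted p = 0.269). A second probe for this gene was above background on 0 of 36 arrays.

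Fas, the receptor of Fas ligand, changed little. Liver levels were 11.00, 11.18 and 10.98 at 0 Gy and 11.43, 11.29 and 11.64 at 12 Gy, a log2 difference of 0.40 ± 0.16 that did not pass (adjusted p = 0.161). Lung levels were 12.75, 12.94 and 12.73 at 0 Gy and 13.13, 13.68 and 13.45 at 12 Gy. The 12 Gy mice stood above the controls in both tissues, but in lung too the difference of 0.61 ± 0.21 missed the threshold (adjusted p = 0.0505), which it passed in 10 of 26 alternatives. A second probe passed in lung at 12 Gy, with 0.95 ± 0.25 (adjusted p = 0.0152). The dose trend of the main probe passed in both tissues, with 0.41 ± 0.12 over 12 Gy in liver (adjusted p = 0.0364, lost in 9 of the 18 fits that left out 1 mouse, with adjusted p up to 0.12) and 0.73 ± 0.16 in lung (adjusted p = 0.00251).

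Pidd1 encodes the scaffold protein of the PIDDosome that activates caspase-2. Its rise in lung at 12 Gy rests on 1 of its 3 probes, the reported one. By that probe lung levels were 6.98, 6.76 and 6.97 at 0 Gy, 6.92, 7.45 and 7.70 at 8 Gy and 8.13, 8.61 and 8.14 at 12 Gy. The 12 Gy lungs stood above every other lung, a log2 change of 1.39 ± 0.20 (adjusted p = 0.000263). A second probe, for another transcript of the gene and above background on all 36 arrays, read 6.66, 7.11 and 6.68 in the control lungs and 6.69, 6.77 and 6.80 at 12 Gy, a difference of -0.06 ± 0.20 (adjusted p = 0.86). At lower doses this second probe was higher in lung, with means of 7.39 at 4 Gy and 7.29 at 8 Gy against 6.82 at 0 Gy. The 4 Gy lungs (7.21 to 7.58) stood above every control, and the 8 Gy lungs (6.93 to 7.75) overlapped with them. The third probe, which is annotated to the same transcript as the first, differed by 0.01 ± 0.22 and was above background in 0 of 3 lungs at 12 Gy. In liver the first probe did not pass at any dose (log2 differences from -0.40 to -0.23), and the second was 0.57 ± 0.13 higher at 8 Gy (adjusted p = 0.0147). The data thus give no single direction for Pidd1.

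**Figure D2:**
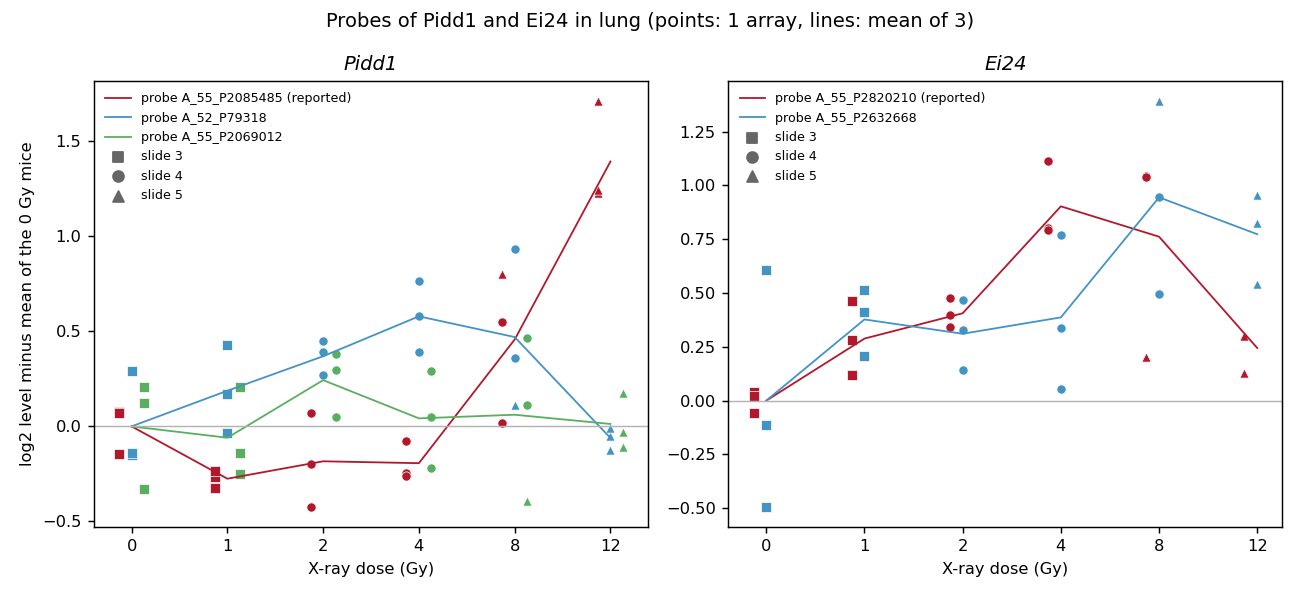
Log2 level in lung of each probe of Pidd1 (left) and Ei24 (right) minus its mean in the 0 Gy mice, against dose in Gy (doses evenly spaced), where a point is 1 array, its shape gives the slide and a line joins the means of 3. At 12 Gy the reported Pidd1 probe was up by 1.39 while the other 2 were at -0.06 and 0.01. The one at -0.06 was higher at 4 and 8 Gy, with mean levels of 7.39 and 7.29 against 6.82 at 0 Gy. The reported Ei24 probe is low on all 4 arrays of slide 5.

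The BCL2 family members split between the tissues. Bax, which permeabilises the mitochondrial outer membrane, rose in both. Liver levels went from 10.66, 10.91 and 10.87 at 0 Gy to 11.62, 11.96 and 11.51 at 8 Gy and 11.94, 12.00 and 12.04 at 12 Gy. Lung levels went from 12.53, 12.55 and 12.38 to 13.49, 13.68 and 14.31 at 8 Gy and 14.32, 14.49 and 13.98 at 12 Gy. Irradiated and control mice did not overlap at any dose in either tissue. The log2 change at 12 Gy was 1.18 ± 0.14 in liver (2.27-fold, adjusted p = 0.000206) and 1.78 ± 0.18 in lung (3.43-fold, adjusted p = 1.71e-05), and Bax first passed at 4 Gy in both, a call that was lost in liver without control mouse 1 or 11 or any 4 Gy mouse (0.59 to 0.71, adjusted p from 0.0525 to 0.096) and in lung without control mouse 21 or 4 Gy mouse 24 (adjusted p of 0.0715 and 0.0738). Both calls at 4 Gy were also lost with a slide term, fixed in liver (1.05, adjusted p = 0.135) and random in lung (1.01, adjusted p = 0.0765), and the liver one when both tissues were fitted together (adjusted p = 0.0662). In lung the 8 Gy array that shared a slide with the 12 Gy arrays (14.31) lay with them (12 minus 8 Gy on that slide was -0.05) and above the other 8 Gy arrays. A second Bax probe gave 1.17 in liver and 1.55 in lung at 12 Gy, both past the threshold.

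Pmaip1, which encodes Noxa, rose in lung and not in liver. Lung levels were 11.10, 10.88 and 11.16 at 0 Gy, 12.19, 12.40 and 12.34 at 4 Gy, 12.52, 12.69 and 12.93 at 8 Gy, and 13.14, 13.61 and 13.21 at 12 Gy. The doses from 4 Gy up kept clear of the controls by over 1 log2 unit. The change was 1.26 ± 0.15 at 4 Gy (adjusted p = 0.00021), 1.67 ± 0.15 at 8 Gy (adjusted p = 6.49e-06) and 2.28 ± 0.15 at 12 Gy (adjusted p = 1.8e-07), which is 4.84-fold. Within slide 4 alone, where the arrays of 2, 4 and 8 Gy can be compared, the level was 0.83 higher at 4 than at 2 Gy and 1.13 higher at 8 than at 2 Gy. Liver levels were 7.11, 7.24 and 7.19 at 0 Gy and 7.51, 7.26 and 7.23 at 12 Gy, and the probe was above background on every liver array. The liver doses overlapped with the controls, and the log2 difference ran from -0.13 to 0.15 with adjusted p between 0.611 and 0.995.

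Bbc3, which encodes Puma, rose in lung, while in liver a fall passed at 8 Gy alone. In lung the levels were 11.54, 11.35 and 11.13 at 0 Gy, 12.06, 12.02 and 12.08 at 8 Gy and 12.47, 12.87 and 12.58 at 12 Gy. All irradiated lungs stood above all controls, but by little at the lower doses. The lowest 2 Gy lung read 11.547, against 11.545 in the highest control. At 1, 2 and 4 Gy the rise did not pass, nor did it in any of 26 alternatives. The log2 change was 0.71 ± 0.15 at 8 Gy (adjusted p = 0.00862) and 1.30 ± 0.15 at 12 Gy (2.46-fold, adjusted p = 3.56e-05). In liver the levels were 10.66, 10.71 and 10.38 at 0 Gy, 9.41, 10.21 and 9.90 at 4 Gy, 9.55, 9.54 and 9.72 at 8 Gy and 9.84, 10.43 and 10.51 at 12 Gy. Bbc3 fell by 0.98 ± 0.22 in liver at 8 Gy (adjusted p = 0.0129), where 4.94% of all probes fell, and the 8 Gy livers lay below every control. At 12 Gy the livers overlapped with the controls again, with a difference of -0.33 ± 0.22 (adjusted p = 0.457). The liver dose trend did not pass, nor did it in any of 26 alternatives. The fall at 8 Gy did not pass with slide as a fixed term (-0.39, adjusted p = 0.597) or without control mouse 11 (-0.92, adjusted p = 0.0568). The lung rise at 8 Gy did not pass without control mouse 21 (0.60, adjusted p = 0.0564) or with slide as a random block (adjusted p = 0.0819), and the one at 12 Gy passed in every alternative.

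Of the remaining members, Aen, a nuclear exonuclease that degrades DNA in dying cells, rose in both tissues. The mean of its main probe climbed at every dose, but lower doses overlapped. In liver the 1 Gy mice (11.62 to 11.86) overlapped with the controls, and in lung the 4 Gy mice (from 13.14) with those of 2 Gy (up to 13.18). Another Aen probe had lung means of 12.07 at 8 Gy and 12.08 at 12 Gy. Liver levels were 11.81, 11.40 and 11.26 at 0 Gy, 12.32, 12.30 and 12.27 at 4 Gy, 12.82, 12.80 and 12.83 at 8 Gy and 13.11, 13.12 and 13.10 at 12 Gy. The 3 mice of each of these higher doses lay close together, and each of these doses stood above the one before. Lung levels were 12.40, 12.16 and 12.18 at 0 Gy, 12.87, 12.77 and 13.06 at 1 Gy, 13.79, 13.72 and 13.84 at 8 Gy and 14.41, 14.20 and 14.17 at 12 Gy. The log2 change at 12 Gy was 1.62 ± 0.13 in liver (3.07-fold, adjusted p = 5.54e-06) and 2.02 ± 0.14 in lung (4.05-fold, adjusted p = 3.01e-07). Aen first passed at 4 Gy in liver and at 2 Gy in lung (0.80 ± 0.14, adjusted p = 0.015), and the latter did not pass with slide as a random block (adjusted p = 0.251) or without control mouse 11 or 21 or 2 Gy mouse 3 or 23 (adjusted p from 0.0626 to 0.0956). The liver call at 4 Gy was lost with slide as a fixed term (adjusted p = 0.0998). Its 3 other probes passed in both tissues at 8 and 12 Gy, with log2 changes of 1.69 to 1.86 in liver and 1.76 to 2.71 in lung at 12 Gy.

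Ei24, a protein of the endoplasmic reticulum found through its induction by etoposide, rose in liver and, by its reported probe, then levelled. Liver levels were 11.55, 11.36 and 11.32 at 0 Gy, 12.38, 12.49 and 12.43 at 8 Gy and 12.40, 12.23 and 12.40 at 12 Gy. The log2 change was 1.02 ± 0.12 at 8 Gy (adjusted p = 0.000247) and 0.93 ± 0.12 at 12 Gy (adjusted p = 0.000369), the latter 1.14 with slide as a fixed term (adjusted p = 0.0637). In lung the levels were 10.81, 10.79 and 10.71 at 0 Gy, 11.57, 11.56 and 11.88 at 4 Gy, 11.81, 11.81 and 10.97 at 8 Gy and 11.07, 11.07 and 10.90 at 12 Gy. They were highest at 4 Gy and in 2 of the 8 Gy mice, and fell back to near the controls in the rest. Ei24 passed in lung at 4 Gy (0.90 ± 0.19, adjusted p = 0.0215, lost without control mouse 11 or 21 or 4 Gy mouse 14 or 24) and 8 Gy (0.76 ± 0.19, adjusted p = 0.0356, lost in 7 of the 18 fits that left out 1 mouse, among them each of the 3 without a control and those without 8 Gy mouse 5 or 15) and not at 12 Gy (0.24 ± 0.19, adjusted p = 0.398). Neither call passed with slide as a random block (adjusted p = 0.333 at 4 Gy and 0.199 at 8 Gy). All 4 low arrays were on slide 5, on which 12 Gy exceeded 8 Gy by 0.04, and slide and dose cannot be told apart here. A second Ei24 probe did not return to its control level in lung at 12 Gy, with a difference of 0.77 ± 0.27 that missed the threshold (adjusted p = 0.055), and its trend passed (adjusted p = 0.0151). In liver the mean of this second probe was 8.11 at 0 Gy, 8.04 at 2 Gy, 8.79 at 4 Gy, 8.93 at 8 Gy and 9.12 at 12 Gy.

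Perp, a membrane protein of desmosomes and a p53 effector in apoptosis, did not change in a detectable way in liver, where levels ran from 14.03 to 14.39 over all 18 mice and the log2 difference at 12 Gy was 0.05 ± 0.10 (adjusted p = 0.866). The control lungs were spread widely, at 12.80, 13.79 and 12.63, and the 12 Gy lungs at 13.62, 14.33 and 14.14 overlapped with them. The difference of 0.95 ± 0.28 passed (adjusted p = 0.0257), but not without control mouse 1 or 21 or 12 Gy mouse 16 or 26 (0.73 to 0.90, adjusted p from 0.0704 to 0.112), nor with slide as a random block (adjusted p = 0.179).

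**Figure D3:**
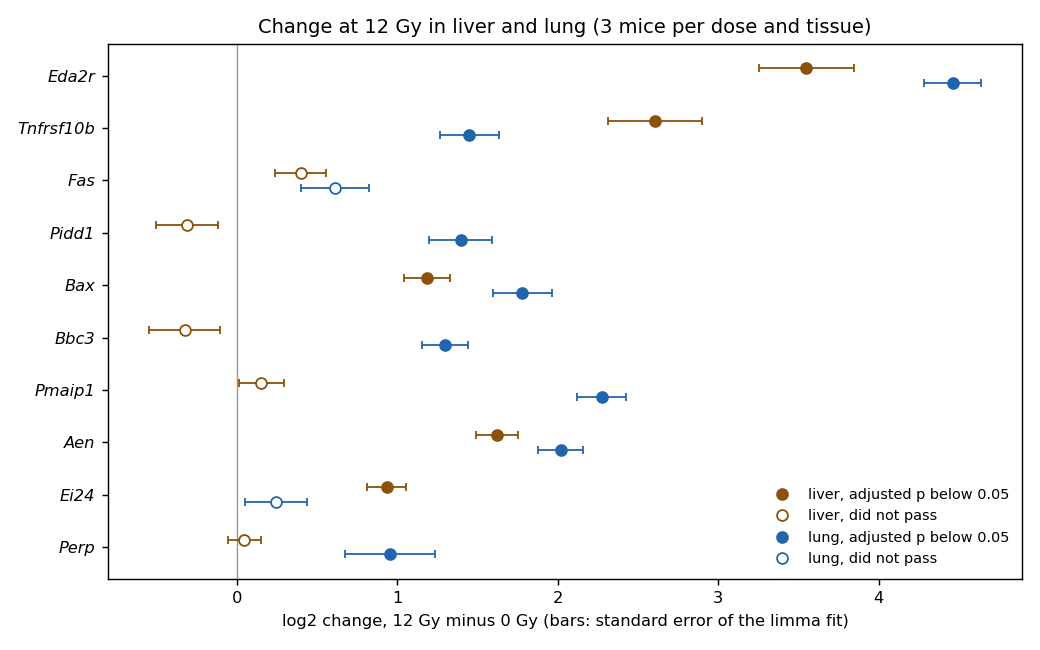
Log2 change from 0 to 12 Gy of each gene in liver (brown) and lung (blue), with the standard error of the limma fit over 3 mice per group as bars. Filled points passed at an adjusted p below 0.05, and in liver 5 of 10 are filled while in lung 8 are.

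To test whether liver and lung differed, the 36 arrays were normalized and fitted together. The 12 Gy change differed between the tissues for 5 of 10 members, where 9.95% of 47376 probes did, and the dose trend for 6, where 16.4% did. Pmaip1 changed by 0.15 in liver and 2.50 in lung in that fit, a difference of 2.35 ± 0.21 (adjusted p = 1.56e-07). Bbc3 changed by -0.29 in liver and 1.40 in lung, a difference of 1.69 ± 0.25 (adjusted p = 0.000174). For Pidd1 the difference was 1.69 ± 0.29 (adjusted p = 0.000706), by the reported probe, against -0.37 ± 0.24 (adjusted p = 0.362) and 0.62 ± 0.50 (adjusted p = 0.491) by the other 2. These 3 differences passed in all 40 alternative fits, most of which left out 1 array. None of those fits held a slide term or used another probe of a gene.

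Bax and Aen rose further in lung by 0.96 ± 0.24 (adjusted p = 0.0106) and 0.88 ± 0.19 (adjusted p = 0.00447), but neither difference passed when each tissue was normalized on its own, with 0.60 (adjusted p = 0.0946) and 0.40 (adjusted p = 0.175). The second Bax probe (0.63 ± 0.21, adjusted p = 0.0594) and 1 of the 3 other Aen probes (0.24 ± 0.22, adjusted p = 0.559) did not pass either, while the other 2 Aen probes did. Tnfrsf10b went the other way. Its trend was steeper in liver, by -1.05 ± 0.34 for lung minus liver (adjusted p = 0.0318), and its 12 Gy change differed by -1.08 ± 0.36, which just missed (adjusted p = 0.0509). The trend difference of Tnfrsf10b passed in 34 of 40 alternative fits and that of Aen (0.64 ± 0.21, adjusted p = 0.0302) in 32. For Eda2r the 12 Gy change differed by 0.24 ± 0.37 (adjusted p = 0.756), and its liver control value was below background.

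The unirradiated tissues already differed. In the joint fit 8 of the 10 members differed between sham-irradiated lung and liver, where 52.8% of all probes did. Pmaip1 was higher in lung by 2.50 ± 0.15 log2 units (adjusted p = 1.54e-14), Tnfrsf10b by 2.34 ± 0.25 (adjusted p = 4.64e-09), Fas by 0.93 ± 0.20 and Bax by 0.79 ± 0.17. Eda2r also passed as higher in lung, but its liver value was below background, so the size of its difference is not given. Ei24 was lower in lung by -1.58 ± 0.16, Perp by -1.50 ± 0.24 and Pidd1 by -0.86 ± 0.20. Pmaip1 was thus higher in unirradiated lung and rose in lung, while Tnfrsf10b was higher in unirradiated lung and rose more steeply in liver. For Aen (-0.07 ± 0.13, adjusted p = 0.72) and Bbc3 (-0.24 ± 0.18, adjusted p = 0.271) no difference was detected. The second probes of Bax (0.02 ± 0.15) and Fas (-0.16 ± 0.24) showed no detectable difference between the unirradiated tissues, so for these genes the direction rests on 1 probe. With the processed signal scaled to the 75th percentile the difference of Bax was 0.25 (adjusted p = 0.147), while those of Aen (-0.67, adjusted p = 8.57e-05) and Bbc3 (-0.65, adjusted p = 0.0188) passed.

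Other genes of the pathway were read from lists, 1 probe per gene. Among 12 p53 targets of feedback and growth arrest, 8 rose in liver at 12 Gy (median log2 change 1.69) and 9 in lung (median 1.60), led by Cdkn1a, the cell cycle inhibitor p21, with 6.33 ± 0.24 in liver and by Gdf15, a stress cytokine, with 4.50 ± 0.17 in lung. The shares of all probes were those given above, 2.91% and 13.5% higher, with 4.11% lower in liver and 7.8% lower in lung.

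The rest of the BCL2 family moved in part. In liver 1 of 11 rose and 3 fell at 12 Gy, where 2.91% of all probes rose and 4.11% fell. Bcl2l1, which encodes the survival protein BCL-XL, rose by 0.53 ± 0.11, while the BH3-only genes Bmf and Bik fell by 1.13 ± 0.23 and 0.93 ± 0.19 and the effector Bak1 fell by 0.77 ± 0.14. In lung 3 of 12 rose, Bcl2l1 by 1.42 ± 0.18, Bok by 1.03 ± 0.19 and Bcl2l11, the gene of the BH3-only protein Bim, by 0.53 ± 0.17, and 1 fell, again Bak1, by 0.75 ± 0.22. Of all lung probes 13.5% rose and 7.8% fell. Bcl2l1 passed as higher and Bak1 as lower in both tissues.

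Few genes downstream of the members passed at 12 Gy, where 2.91% of all liver probes rose and 4.11% fell. In lung 13.5% of all probes rose and 7.8% fell. Of 10 genes of the apoptosome, caspases and their inhibitors, 1 rose and 1 fell in liver and 2 rose in lung. The median log2 change of this list was -0.06 in liver and 0.11 in lung, beside 0.01 and 0.09 over all probes. These counts therefore say little about the list. Among these 10 genes Apaf1, the apoptosome scaffold, rose in liver (0.51 ± 0.14) and lung (0.74 ± 0.15), and Birc3 fell by 0.52 ± 0.14 in liver. Of 10 genes of receptor ligands and adaptors, Tnfsf10, the gene of TRAIL, fell by 1.17 ± 0.27 in liver and by 1.44 ± 0.24 in lung. Its receptor gene Tnfrsf10b rose in both tissues. Traf6 rose in liver (0.60 ± 0.14). Eda, the gene of the ectodysplasin ligands, rose in lung (1.09 ± 0.19) beside the receptor gene Eda2r. Of 6 other p53 targets described in cell death, 1 rose in liver and 3 in lung, Rps27l in both (0.52 ± 0.10 and 0.76 ± 0.16).

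Markers of lymphocytes fell with dose, most in lung. At 12 Gy 8 of 8 B cell genes (median log2 change -3.51) and 8 of 8 T cell genes (median -3.68) fell in lung. The mean log2 level of the B cell list ran from 9.20 to 10.1 in the control lungs and from 5.88 to 6.13 at 12 Gy, with at most 3 of its 8 genes above background there. That of the T cell list ran from 9.62 to 11.7 and from 6.66 to 7.22. In liver 4 of 7 B cell and 3 of 7 T cell genes fell (medians -1.01 and -1.05). These lists moved with dose as the members did, and their part in the members' values was not tested. The hepatocyte list in liver and the epithelium list in lung had 0 genes that passed at 12 Gy, 5 of 8 macrophage genes fell in liver and 0 in lung, and endothelial genes fell in 2 of 6 in liver and 1 of 6 in lung. Of the erythroid genes 3 of 5 fell and 1 rose in lung and 2 of 6 fell in liver, and of the neutrophil genes 2 of 8 rose and 1 fell in lung and 1 of 7 rose and 1 fell in liver.

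**Figure D4:**
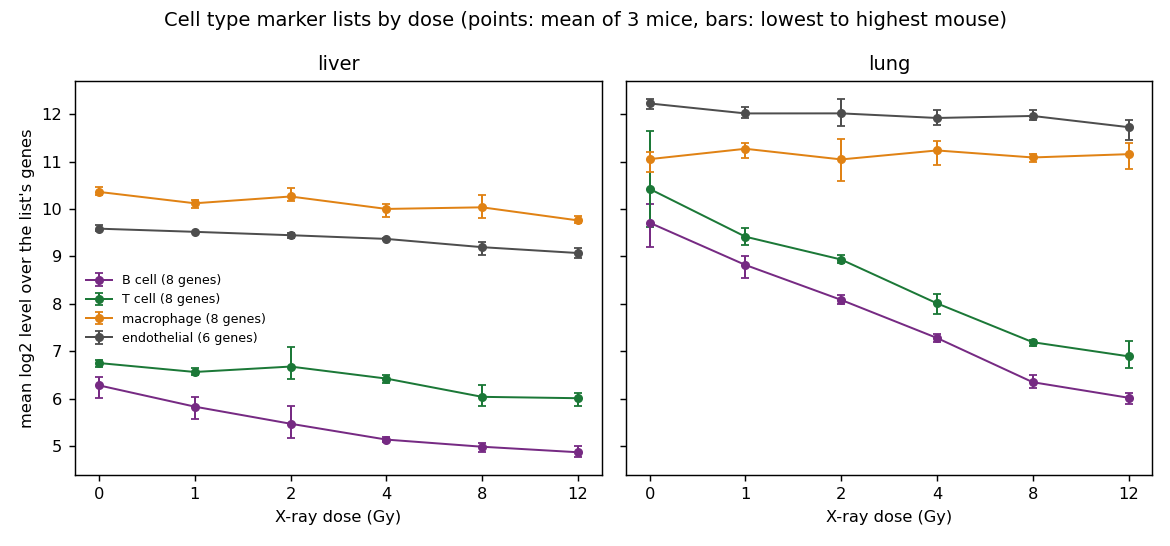
Mean log2 level over the genes of 4 cell type marker lists against dose in Gy (doses evenly spaced), liver on the left and lung on the right, where a point is the mean of 3 mice and a bar runs from the lowest to the highest mouse. The B cell and T cell lists drop in lung from 9.71 and 10.4 at 0 Gy to 6.02 and 6.89 at 12 Gy, and the macrophage list in lung stays near 11.1.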

How the data were processed

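Agilent 1-colour mouse arrays of 36 mRNA samples were used. Per the file headers, Feature Extraction 11.5.1.1 made the deposited intensities, and the authors scaled the separate series values, which are linear intensities. The miRNA arrays were not used. Median spot and background signals were corrected by normexp (offset 0), control spots were dropped, outlier spots were set to missing (no member was affected), and values were quantile-normalized within a tissue, log2-transformed and averaged per probe. Background was thereby subtracted and the arrays given 1 distribution, which hides a shift common to all probes. Probes that 1 or more arrays of a tissue showed well above background were fitted with limma 3.58.1 in R 4.3.3, with 6 dose groups, a linear trend, and a joint fit of 36 arrays for tissue differences. A gene's value is its probe above background on most arrays, ties going to the higher mean log2 level (6.79 against 6.75 for Pidd1), and other probes are given where they differ. The members and gene lists were chosen with earlier results of these data known. Other scalings, filters, probe averages, slide terms and left-out mice were tried as alternatives. The result of 1 gene of the pathway lists is not reported here. The scripts were tested on simulated data. The labels do not say whether liver and lung came from the same mice.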

Additional observations from a re-analysis of the deposited data

Results flagged for a closer look

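The response to 12 Gy differed between lung and liver, by the test of the difference itself (limma over 36 arrays, lung minus liver, log2), for Pmaip1 (2.35), Bbc3 (1.69), Pidd1 (1.69), Bax (0.96) and Aen (0.88). The dose trend over 12 Gy differed for Pmaip1 (2.29), Pidd1 (1.71), Bbc3 (1.56), Bax (0.86) and Aen (0.64), with the steeper slope in lung, and for Tnfrsf10b (-1.05), with the steeper slope in liver. For Pidd1 the difference is that of 1 probe out of 3. The differences of Bax and Aen did not pass with each tissue normalized on its own, at 12 Gy (0.60, adjusted p = 0.0946, and 0.40, adjusted p = 0.175) or in the trend (0.54, adjusted p = 0.0702, and 0.17, adjusted p = 0.607). With the processed signal the 12 Gy difference of Aen (0.50, adjusted p = 0.074) and the trends of Bax (0.54, adjusted p = 0.0802) and Aen (0.22, adjusted p = 0.53) did not pass. Slides differed between the tissues and between doses within them, and their part in these differences was not tested. With 3 mice per group no single mouse was tested as an outlier.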

How the results depend on the processing

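No call of a member turned its direction under any alternative. Counts of members that passed as higher or were called changed most with a slide term. In liver at 1 Gy, where no member passed, 1 passed and was called with the processed signal, with the series values and with both tissues fitted together. That member was Eda2r, whose liver control values were below background. At 2 Gy in liver 1 passed and was called, against 2 and 2 with those 3 settings and 2 and 0 with a normexp offset of 50, which also called 1 in place of 2 at 4 Gy. With slide as a fixed term in liver 1 passed and 1 was called at 4 Gy (Eda2r), and 1 passed the trend (Aen). In lung that term could not be fitted, because the slide of 0 and 1 Gy shares no dose with the others. With slide as a random block in lung 1 passed at 2 Gy, 3 at 4 Gy, 5 at 8 Gy and 7 at 12 Gy. At 1 Gy in lung 2 passed with an offset of 50 or with both tissues fitted together.

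Leaving out 1 mouse at a time gave, for the numbers passed in liver, dose by dose from the lowest to the highest, ranges of 0 to 0, 1 to 2, 3 to 5, 5 to 5 and 5 to 5, and for those called 0 to 0, 1 to 1, 1 to 2, 3 to 4 and 4 to 5. In lung the numbers passed were 1 to 1, 1 to 3, 3 to 6, 5 to 7 and 7 to 9, and those called 1 to 1, 1 to 1, 2 to 4, 4 to 6 and 7 to 8. The trend passed for 5 to 6 members in liver and 8 to 9 in lung. The tissue difference (fits added after seeing the data, like the one with the processed signal) held for 5 to 7 members at 12 Gy, 4 to 7 in the trend and 8 to 8 at 0 Gy.

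Mouse numbers are shared by the liver and lung samples, but deviations of same-numbered arrays did not go together (correlations from -0.05 to 0.05, with 0 of 18 above 0.1 and 6 of 18 best with their own number). A joint fit with the mouse number as a replicate block moved the 12 Gy difference of Tnfrsf10b past the threshold (-1.08, adjusted p = 0.0499), so that 6 members differed, and changed no other call. The processed signal moved the median of all probes to 0.13 and 0.11 at 8 and 12 Gy in liver and 0.14 at 12 Gy in lung. Over all probes, 5944 rose in lung at 12 Gy, against 1020 with slide as a random block, and 1117 in liver, against 199 with slide as a fixed term. The cause of these changes was not tested. With 3 arrays a dose, log2 changes of 0.49 to 0.51 in liver at 2 Gy (Bax, Ei24 and Aen) did not pass.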
